A study of Mus musculus with 8 samples.

Results

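Skeletal muscle shrinks when protein breakdown outpaces synthesis, and 39 genes of the routes that carry this breakdown were followed in newborn muscle with and without the ΔDMR1-U2 deletion. They were chosen by name: muscle ubiquitin ligases, FoxO and related transcription factors, genes of growth and energy signalling, the autophagy machinery, autophagy receptors, and lysosomal proteases and membrane proteins. All 39 were found among the 23336 gene rows of the count table, and all 39 passed the filter on low counts, which left 15241 genes. By edgeR, 0 members differed between the groups at an adjusted p under 0.05 over all genes, where 0.512% of all tested genes were higher and 0.617% lower. DESeq2 called 2 members, Bnip3 and Atg9a, both higher, where it called 2.82% of all genes higher and 3.32% lower. Bnip3, a receptor that targets mitochondria to autophagy, had the smallest p by edgeR, at a 2.00-fold higher level in ΔDMR1-U2 muscle. In 1 ΔDMR1-U2 library, 1B, 28 of the 39 genes had their highest level of all 8 libraries, where 20.4% of all tested genes did. This count was added after the data were seen.

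The samples were skeletal muscle of female C57BL/6 mice at postnatal day 2, 4 from ΔDMR1-U2 mice and 4 from wild-type mice, and each group has libraries named 1A, 1B, 2 and 3. The deletion is named for elements of the imprinted Igf2 locus, the gene of insulin-like growth factor II, and total RNA depleted of ribosomal RNA was sequenced from both ends. The labels do not say which muscle was taken, from which parent the deletion came, or whether 1A and 1B share a litter or an animal. If any libraries share a source, the p-values measure only the spread between these libraries.

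Muscle loses protein by 2 main routes. In the first, ubiquitin ligases tag proteins for the proteasome. In the second, autophagy wraps cytoplasm and organelles in a membrane that fuses with the lysosome, where cathepsins digest the content. FoxO transcription factors, which insulin and insulin-like growth factor signalling keeps out of the nucleus, are known in mouse muscle to switch on genes of both routes, among them Fbxo32, Trim63, Bnip3 and Map1lc3b.

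The short promoter stretches below are shown because 2 kinds of factor are tied to these routes, FoxO proteins and TFEB, and each has a known recognition motif. Motif letters are in capitals. In Bnip3 and Atg5 these are only CACGTG, the core of the TFEB motif, and neither full motif was found in their windows. The stretches come from the RefSeq promoter table of build GRCm38.p6, cut so that no base of an annotated exon is included. The first 4 are the members with the smallest p that hold a motif or this core before their start. Trim63 was added after its values were seen because it holds the FoxO-type motif.
Bnip3 (chr7:138909579-138909644, minus strand): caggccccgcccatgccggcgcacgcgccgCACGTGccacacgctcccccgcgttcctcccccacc
Ctsd (chr7:142388039-142388077, minus strand): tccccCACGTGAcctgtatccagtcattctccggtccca
Atg5 (chr10:44268295-44268338, plus strand): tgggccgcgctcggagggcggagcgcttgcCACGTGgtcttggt
Atg3 (chr16:45158707-45158784, plus strand): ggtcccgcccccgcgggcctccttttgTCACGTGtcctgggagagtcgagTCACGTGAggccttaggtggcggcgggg
Trim63 (chr4:134314896-134314962, plus strand): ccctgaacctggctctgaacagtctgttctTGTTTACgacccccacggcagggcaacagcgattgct

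The FoxO-type motif searched was TGTTTAC or its reverse complement GTAAACA, and the TFEB-type motif was TCACGTG or CACGTGA, which contains the E-box core CACGTG. Promoter windows of 300 bases, 250 before to 50 after a start, were matched for 29 of the 39 genes, with 33 windows. For the genes without a window, no motif was looked for. The FoxO-type motif was in the windows of Trim63 and Sesn1, 6.06% of the member windows, and in 3.65% of all 32851 windows. The TFEB-type motif was in those of Atg3, Atg7, Atg14, Ctsd and Lamp1, 15.2% of the member windows, against 3.77% of all windows. The E-box core alone was also in those of Atg5, Bnip3 and Ctsl, 8 genes in all. It was in 24.2% of the member windows, against 7.15% of all windows. The difference between these shares was not tested. A match describes these letters and is not a site shown to be bound.

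Depth ran over 16781493 to 20060129 gene counts a library in ΔDMR1-U2 muscle, against 16084413 to 26913636 in wild-type muscle. Igf2as, a transcript of the Igf2 locus, had 100 to 122 counts in each ΔDMR1-U2 library, against 1113 to 1868 in each wild-type library. Xist, made by the inactive X chromosome, reached only 49 counts in ΔDMR1-U2 library 1A, against 21122 to 42121 in the other 7, which goes against the female label of 1A. ΔDMR1-U2 library 1B lay at the end of the first principal component, at -41.7 against -16.9 to 23.9 in the other 7. It also had the highest summed level of 8 white adipocyte markers, 646 CPM (read counts relative to the scaled library size), against 258 to 298 CPM in the other ΔDMR1-U2 libraries and 195 to 268 CPM in wild-type, and it was highest in 7 of the 8. Lep, the fat hormone leptin, had 0.0597 to 0.247 CPM in ΔDMR1-U2 muscle, against 0.170 to 0.779 CPM in wild-type. These ranges overlapped, at only 1 to 12 counts a library. No marker of this list was at 0 in every library. The sum of 5 skin markers was 28.8 CPM in library 1B, 12.4 to 13.3 CPM in the other ΔDMR1-U2 libraries and 11.1 to 17.9 CPM in wild-type. Schwann cell markers were higher in every ΔDMR1-U2 library, at 111 to 173 CPM over 6 genes against 51.5 to 103 CPM in wild-type. Macrophage markers, which matter for lysosomal genes, overlapped at 353 to 408 CPM in ΔDMR1-U2 muscle, against 382 to 497 CPM in wild-type over 13 genes. Only 3 of these 13 had a positive log2 fold change. Neutrophil markers, of another cell type rich in lysosome-like granules, summed to 57.8 to 142 CPM in ΔDMR1-U2 muscle, against 17.5 to 80.5 CPM in wild-type, with a positive log2 fold change in 5 of the 5 tested. The sum of 6 brown adipocyte markers was 132 CPM in library 1B, 87.5 to 103 CPM in the other ΔDMR1-U2 libraries and 90.8 to 101 CPM in wild-type. The 8 skeletal muscle markers, of which 0 had a positive log2 fold change, summed to 161019 to 181170.5 CPM in ΔDMR1-U2 muscle, against 176519 to 208007 CPM in wild-type. The part of other cell types in the results was not tested. In bulk tissue, fewer cells of a type and less RNA per cell cannot be told apart. Counts over the members are therefore given also without library 1B and without library 1A. A library 1A or 1B with no group named is that of ΔDMR1-U2.

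**Figure D1:**
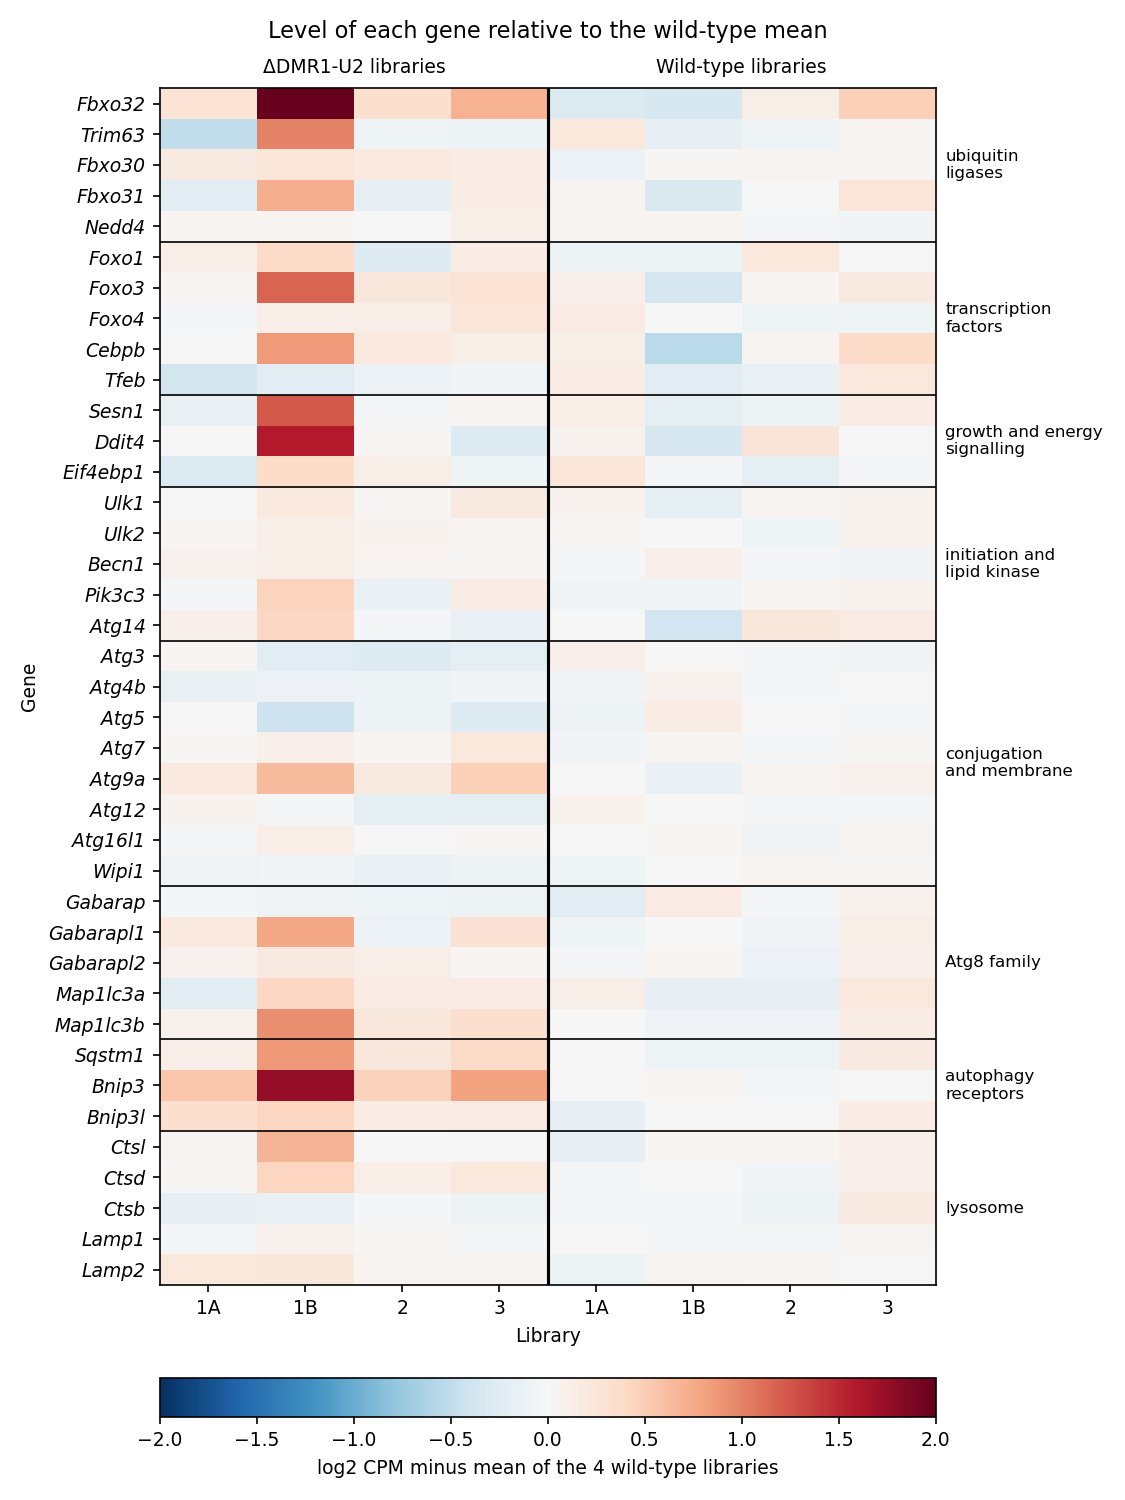
Each row is 1 of the 39 genes and each column 1 library, ΔDMR1-U2 left and wild-type right. Colour gives log2 CPM minus the mean of the 4 wild-type libraries. ΔDMR1-U2 library 1B is the reddest column, with 28 genes at their highest level, where 20.4% of all tested genes were highest in it. Bnip3 and Atg9a are red in all 4 ΔDMR1-U2 libraries.

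Across the 39 genes, 31 had a positive log2 fold change of ΔDMR1-U2 over wild-type and 8 a negative one, where 49.8% of all tested genes had a positive one. The median log2 fold change was 0.12 over the members and -0.001 over all genes tested. By the quasi-likelihood test of edgeR, adjusted after Benjamini and Hochberg, 0 members were higher and 0 lower in ΔDMR1-U2, where 0.512% and 0.617% of all genes were. At an unadjusted p under 0.05, 8 members were higher, namely Bnip3, Atg9a, Bnip3l, Sqstm1, Fbxo30, Fbxo32, Map1lc3b and Ctsd, and 0 were lower, where 10.4% and 10.9% of all genes were. In 5 members, Bnip3, Bnip3l, Atg9a, Fbxo30 and Lamp2, every ΔDMR1-U2 library lay above every wild-type library, where 6.40% of all genes did, and in 0 members every one lay below, where 6.38% did. DESeq2 called 2 members higher, Bnip3 and Atg9a, where it called 2.82% of all genes higher, and 0 members lower, where it called 3.32% lower. With the library name as a block in edgeR, 0 members were called, where 0.0197% of all genes were higher and 0.0656% lower. With the leading number as a block, 0 were called, where 0.0262% were higher and 0.0328% lower.

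Fewer members leaned higher without ΔDMR1-U2 library 1B. The median over the members was then 0.03, and 23 of 39 had a positive log2 fold change, against 49.5% of all genes. In this fit 1 member, Bnip3, was called higher by edgeR, where 0.319% of all genes were, and 0 lower, where 0.436% were. At an unadjusted p under 0.05, 7 members were higher, the same as before other than Ctsd, against 8.04% of all genes, and 0 lower, against 8.19%. Without ΔDMR1-U2 library 1A, 0 members were called higher and 0 lower by edgeR, where 0.423% and 0.469% of all genes were. At an unadjusted p under 0.05, 10 members were then higher, the 8 named above with Foxo3 and Foxo4, and 2 lower, Atg3 and Atg5, where 10.4% and 10.5% of all genes were. Without ΔDMR1-U2 library 2, edgeR called 2 members higher, Bnip3 and Atg9a, where it called 1.91% of all genes higher, and 0 members lower, where it called 2.19% lower.

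**Figure D2:**
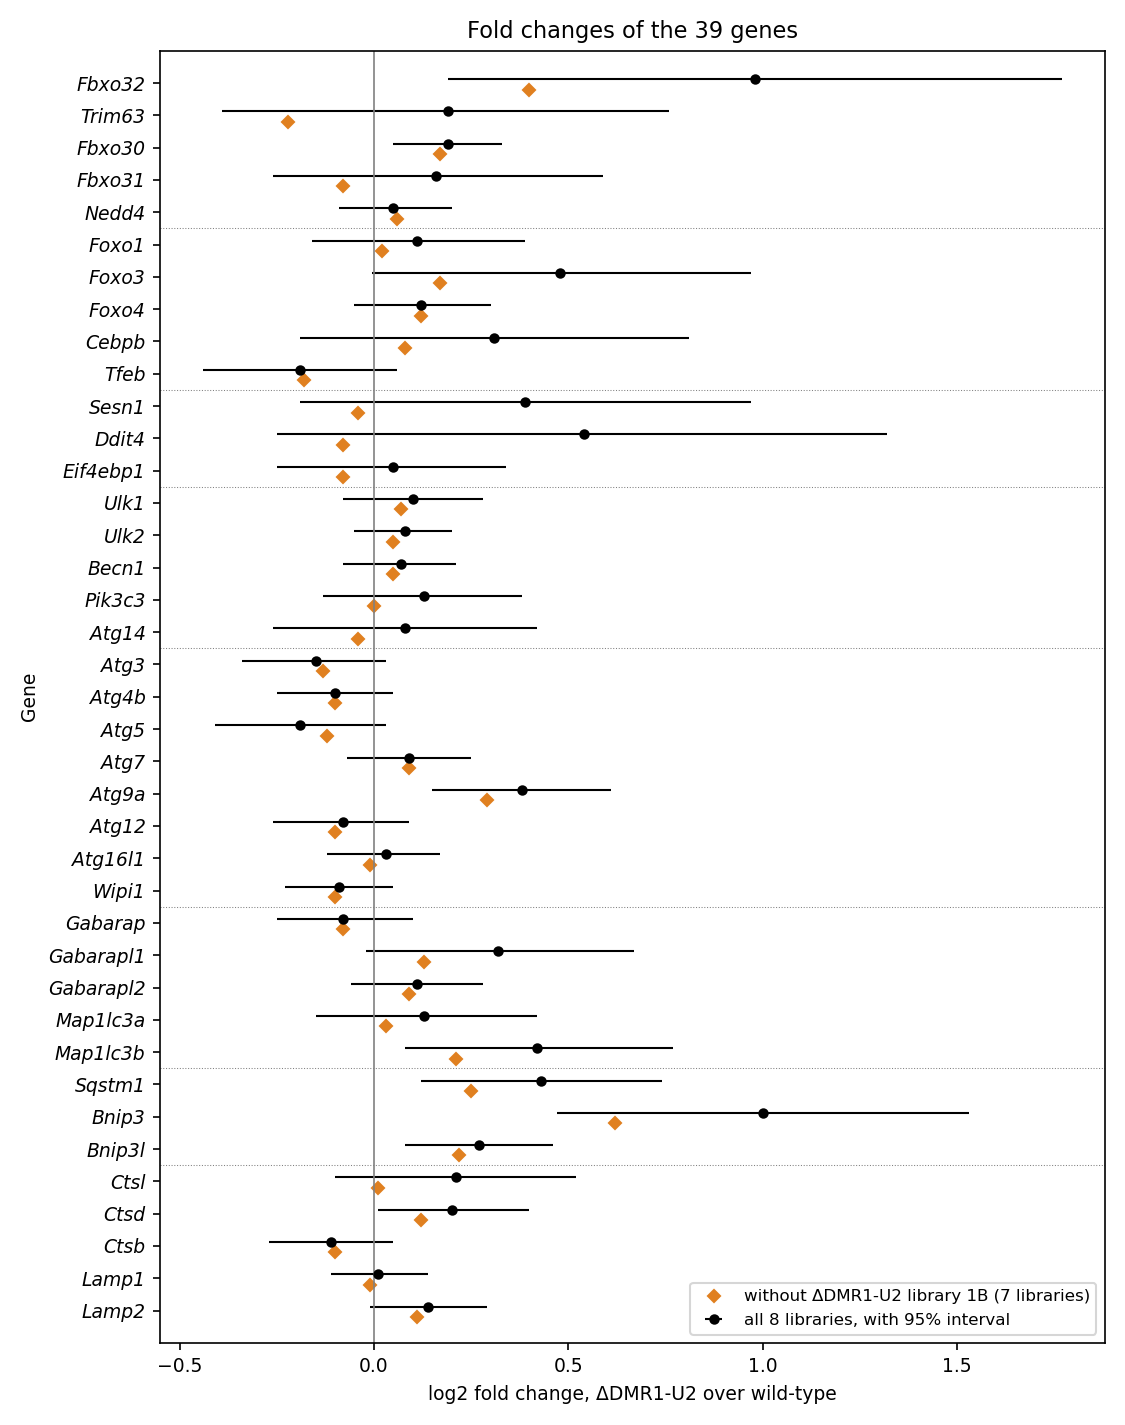
Black points give the log2 fold change of each gene, ΔDMR1-U2 over wild-type, with its 95% interval from the fit over all 8 libraries. Orange diamonds give the value without ΔDMR1-U2 library 1B. Bnip3 lies furthest right at 1.00 and stays at 0.62 without library 1B, while Sesn1, Ddit4 and Trim63 move across 0.

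The 3 autophagy receptors had a median log2 fold change of 0.43, or 0.25 without library 1B. Each was higher at an unadjusted p under 0.05 (edgeR), where 10.4% of all tested genes were. Receptors bind both their cargo and the small Atg8 proteins of the autophagy membrane, and Bnip3 and Bnip3l sit on the mitochondrial outer membrane while Sqstm1, also called p62, gathers ubiquitin-tagged proteins. Bnip3 (chromosome 7, 138890836 to 138909519, in build mm10 like the positions that follow) had 38.0, 87.3, 35.6 and 44.9 CPM in libraries 1A, 1B, 2 and 3 of ΔDMR1-U2 muscle, against 25.7, 26.4, 25.2 and 25.7 CPM in wild-type libraries 1A, 1B, 2 and 3. The 4 wild-type values were nearly alike, and every ΔDMR1-U2 library was above them. Bnip3 averaged 51.5 ± 24.2 CPM over the 4 ΔDMR1-U2 libraries and 25.8 ± 0.524 CPM over the 4 wild-type libraries (SD). Its log2 fold change was 1.00 ± 0.24 (SE), with a 95% interval of 0.47 to 1.53 and an adjusted p of 0.0680 (edgeR).

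Library 1B was the highest for Bnip3, so leaving it out had to lower the ΔDMR1-U2 mean and narrow its spread. The fit without it is therefore no separate support for Bnip3. Without ΔDMR1-U2 library 1B the ΔDMR1-U2 mean was 39.5 ± 4.85 CPM (SD, n = 3), and the log2 fold change was 0.62 ± 0.09 (SE; adjusted p = 0.0180, edgeR). Bnip3 was also called without ΔDMR1-U2 library 2 and by DESeq2 (adjusted p = 0.0301, all 8 libraries). Without both 1A and 1B, the log2 fold change was 0.64 (adjusted p = 0.0529, edgeR). Over the 8 fits that left out 1 library the log2 fold change ran from 0.62 to 1.14 and the adjusted p from 0.0180 to 0.185. The authors' deposited table gives Bnip3 an adjusted p of 0.464. It calls 0 of the 39 genes at an adjusted p under 0.05, where it calls 179 of its 23336 gene rows. An annotated antisense gene, Gm45507, shares 504 exon bases with Bnip3 on the opposite strand. No source used here gives the strand setting of the counting, so reads of such pairs cannot be told apart.

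Bnip3l (chromosome 14, 66985239 to 67008877), the close relative also known as Nix, had 73.2, 78.7, 64.8 and 65.5 CPM in the ΔDMR1-U2 libraries, against 51.9, 58.4, 58.6 and 64.5 CPM in wild-type. The groups did not overlap, though the lowest ΔDMR1-U2 and the highest wild-type value nearly met. This gave a log2 fold change of 0.27 ± 0.09 (SE; adjusted p = 0.118, edgeR), and 0.22 without library 1B. Sqstm1 (chromosome 11, 50199366 to 50210827) had 149.7, 249.5, 160.5 and 179 CPM in ΔDMR1-U2 muscle, against 135, 128, 129 and 156 CPM in wild-type. Only library 1A of ΔDMR1-U2 lay below the highest wild-type library. The log2 fold change was 0.43 ± 0.14 (SE; adjusted p = 0.132, edgeR) and 0.25 without library 1B. Scaled by exon length, Sqstm1 was the most abundant receptor, at 55.0 CPM per kilobase in ΔDMR1-U2 and 40.8 in wild-type, while Bnip3 was at 22.7 in ΔDMR1-U2 and 11.4 in wild-type. Mrnip on the opposite strand shares 580 exon bases with Sqstm1.

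**Figure D3:**
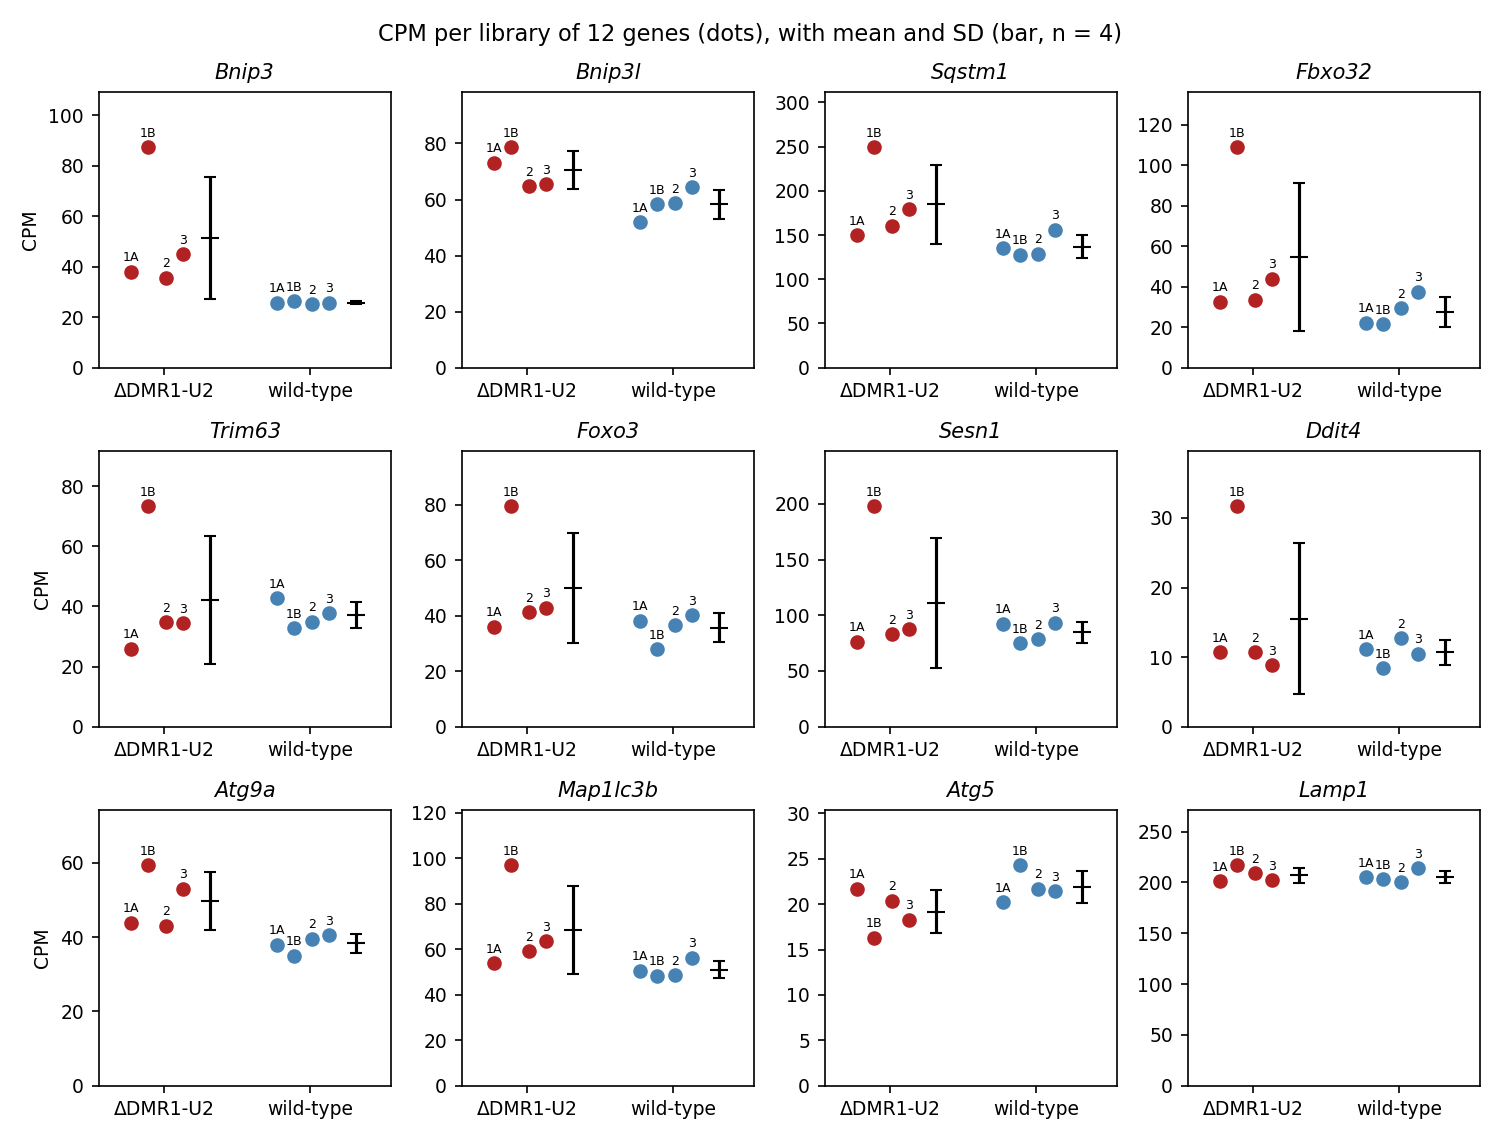
Dots give the CPM of each library for 12 genes, labelled by library, with ΔDMR1-U2 in red on the left and wild-type in blue on the right; bars give the mean and SD of 4 libraries. Bnip3 separates the groups in every library, whereas Sesn1, Ddit4, Trim63 and Foxo3 are high in ΔDMR1-U2 library 1B and overlap wild-type otherwise.

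Among the ubiquitin ligases, Fbxo32 and Trim63 are the pair known as atrogin-1 and MuRF1, the classic markers of muscle atrophy, and neither passed by edgeR or DESeq2. Fbxo32 (chromosome 15, 58175879 to 58214932) had 32.5, 109, 33.6 and 43.9 CPM in the ΔDMR1-U2 libraries, against 22.3, 21.6, 29.3 and 37.5 CPM in wild-type. Library 1B stood at 3.94 times the wild-type mean, while libraries 1A and 2 lay within the wild-type range. Its log2 fold change was 0.98 ± 0.36 (SE; adjusted p = 0.160, edgeR), and without library 1B it was 0.40 ± 0.18 (SE; adjusted p = 0.304, edgeR).

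Trim63 (chromosome 4, 134315120 to 134329629), described here for its pairing with Fbxo32 after its values were seen, had 26.0, 73.4, 34.7 and 34.5 CPM in ΔDMR1-U2 muscle, against 42.8, 32.8, 34.9 and 37.7 CPM in wild-type. Library 1A was the lowest of the 8 libraries and library 1B the highest. This gave a log2 fold change of 0.19, and -0.22 without library 1B (adjusted p = 0.710 and 0.393, edgeR), so its sign depended on that library. Without library 1A it was 0.37. Fbxo31, another F-box ligase subunit, had a log2 fold change of 0.16 with all libraries, -0.08 without 1B and 0.28 without 1A. Gm15943 on the opposite strand shares 186 exon bases with Fbxo32.

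Fbxo30, an F-box subunit known in mouse muscle as a ligase of atrophy, lay slightly higher in each ΔDMR1-U2 library. It had 57.4, 59.9, 58.0 and 55.7 CPM in ΔDMR1-U2 muscle, against 46.5, 51.5, 52.7 and 51.8 CPM in wild-type. All 4 ΔDMR1-U2 libraries were above all 4 wild-type libraries, with a log2 fold change of 0.19, a standard error of 0.06 and a value of 0.17 without library 1B (adjusted p = 0.132 and 0.243, edgeR). Nedd4, a ligase of many membrane proteins and of signalling by growth factor receptors, was by far the most abundant member per length, at 197 CPM per kilobase in ΔDMR1-U2 and 190.0 in wild-type. It had 2145, 2147, 2104 and 2261 CPM in ΔDMR1-U2 muscle, against 2136, 2144, 2049 and 2009 CPM in wild-type, which overlap, and its log2 fold change of 0.05 had a 95% interval of -0.09 to 0.20.

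Of the transcription factors, Foxo3 had the largest log2 fold change. Foxo3 (chromosome 10, 42181841 to 42276755) had 36.1, 79.5, 41.2 and 42.9 CPM in ΔDMR1-U2 muscle, against 38.2, 28.0, 36.5 and 40.2 CPM in wild-type. Library 1B was far above any other library of either group, and the other 3 ΔDMR1-U2 libraries reached from within the wild-type range to just above it. The log2 fold change was 0.48 ± 0.22 (SE; adjusted p = 0.237, edgeR), and 0.17 without library 1B. Foxo4, X-linked and the most abundant FoxO gene per length at 18.2 CPM per kilobase in ΔDMR1-U2 and 16.7 in wild-type, had 56.8, 63.6, 64.0 and 69.0 CPM in ΔDMR1-U2 muscle, against 64.9, 58.6, 55.0 and 54.8 CPM in wild-type. These ranges overlapped, with a log2 fold change of 0.12, or 0.17 without library 1A. Foxo1 had a log2 fold change of 0.11, or 0.02 without library 1B. Cebpb, a stress-responsive factor, had one of 0.31, or 0.08 without library 1B, at 3.44 to 9.18 CPM.

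Tfeb, the factor that drives lysosomal and autophagy genes, pointed the other way. It had 17.2, 18.9, 20.3 and 21.3 CPM in ΔDMR1-U2 muscle, against 24.6, 19.1, 19.8 and 25.6 CPM in wild-type. The groups overlapped, and the log2 fold change was -0.19 with a 95% interval of -0.44 to 0.06 (adjusted p = 0.346, edgeR).

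The 3 genes of growth and energy signalling had a median log2 fold change of 0.39 with all libraries and -0.08 without library 1B. Sesn1 and Ddit4 (also called REDD1) both restrain the growth kinase mTORC1, and Eif4ebp1 blocks translation until mTORC1 phosphorylates it. Sesn1 had 76.4, 198, 82.9 and 87.4 CPM in ΔDMR1-U2 muscle, against 92.3, 74.8, 78.5 and 93.4 CPM in wild-type. Ddit4 had 10.7, 31.7, 10.7 and 8.83 CPM in ΔDMR1-U2 muscle, against 11.1, 8.42, 12.7 and 10.5 CPM in wild-type. In both genes, 3 of the 4 ΔDMR1-U2 libraries lay within the wild-type range and library 1B was at 2.34 times the wild-type mean for Sesn1 and 2.97 times for Ddit4. The log2 fold changes were 0.39 for Sesn1 and 0.54 for Ddit4 with all libraries, and -0.04 and -0.08 without library 1B. Eif4ebp1 had 56.8, 89.3, 75.0 and 65.1 CPM in ΔDMR1-U2 muscle, against 81.8, 68.2, 60.0 and 67.6 CPM in wild-type. It too was highest in library 1B, and its log2 fold change was 0.05, or -0.08 without library 1B and 0.15 without library 1A.

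Among the 5 genes that start autophagy, 0 passed by edgeR or DESeq2. Over all tested genes, 0.512% were higher and 0.617% lower by edgeR, and 2.82% and 3.32% by DESeq2. The median over the 5 genes was 0.08 on the log2 fold change scale. Ulk1 and Ulk2 are the kinases that open the process, and Becn1, Pik3c3 and Atg14 are parts of the lipid kinase complex that marks the growing membrane. Ulk2, the most abundant of them per length, had 99.9, 107, 103 and 101 CPM in ΔDMR1-U2 muscle, against 98.9, 97.4, 92.4 and 102 CPM in wild-type. Ulk1 had 36.2, 41.3, 36.8 and 40.6 CPM in ΔDMR1-U2 muscle, against 37.6, 31.8, 37.4 and 37.6 CPM in wild-type. Both genes overlapped between groups, and the 5 log2 fold changes lay between 0.07 for Becn1 and 0.13 for Pik3c3. Without library 1B the median was 0.05, Pik3c3 was at 0.00074 and Atg14 at -0.04. The widest interval was that of Atg14, the least abundant of the 39 genes per length, at -0.26 to 0.42, and the narrowest that of Ulk2, at -0.05 to 0.20. Library 1B was the highest of the 8 libraries in all 5 genes, at no more than 1.36 times the wild-type mean. Over all tested genes it was the highest in 20.4%. Cntd1 on the opposite strand shares 3104 exon bases with Becn1.

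Atg9a had the smallest p among the genes of conjugation and membrane supply. It encodes the multi-pass membrane protein whose vesicles seed the autophagy membrane. Atg9a (chromosome 1, 75180860 to 75192196) had 43.9, 59.4, 43.1 and 53.0 CPM in ΔDMR1-U2 muscle, against 38.0, 35, 39.6 and 40.6 CPM in wild-type. All ΔDMR1-U2 libraries were above all wild-type libraries. The log2 fold change was 0.38 ± 0.11 (SE; adjusted p = 0.0917, edgeR) and 0.29 without library 1B (adjusted p = 0.160, edgeR). It was called by DESeq2 (adjusted p = 0.0273) and by edgeR without ΔDMR1-U2 library 2 (adjusted p = 0.0453), and the adjusted p reached 0.225 in the other fits that left out 1 library. The transcript Gm29253 on the same strand shares 1832 exon bases with Atg9a, and Ankzf1 on the opposite strand shares 46.

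Of the 8 genes of conjugation and membrane supply, 5 had a negative log2 fold change, and 0 passed by edgeR and 1, Atg9a, by DESeq2. Shares over all tested genes were 0.512% higher and 0.617% lower by edgeR, and 2.82% and 3.32% by DESeq2. Conjugation attaches Atg8 proteins to lipid. Atg5, which forms the conjugation scaffold with Atg12 and Atg16l1, had 21.7, 16.3, 20.4 and 18.3 CPM in ΔDMR1-U2 muscle, against 20.2, 24.3, 21.7 and 21.4 CPM in wild-type. It was the only member with its lowest value in library 1B, the groups overlapped, and the log2 fold change was -0.19 with a 95% interval of -0.41 to 0.03 (adjusted p = 0.294, edgeR). Atg3, the conjugating enzyme, had -0.15, Atg4b, the protease that trims Atg8 proteins, -0.10, and Atg12 -0.08. Atg7, the activating enzyme, had 0.09 and Atg16l1 0.03. Wipi1, a lipid-binding protein of the early membrane and the most abundant of this role per length at 8.98 CPM per kilobase in ΔDMR1-U2 and 9.56 in wild-type, had 40.2, 40.5, 38.2 and 39.5 CPM in ΔDMR1-U2 muscle, against 39.6, 42.1, 43.8 and 43.0 CPM in wild-type. The groups of Wipi1 overlapped in these values, with a log2 fold change of -0.09.

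In the Atg8 family, the small proteins that coat the autophagy membrane, Map1lc3b, which encodes the marker protein LC3B, and Gabarapl1 had the largest log2 fold changes. Map1lc3b (chromosome 8, 121590361 to 121598760) had 53.7, 96.9, 59.2 and 63.5 CPM in ΔDMR1-U2 muscle, against 50.5, 48.4, 48.5 and 56.2 CPM in wild-type. Of the ΔDMR1-U2 libraries, 1A alone lay below the highest wild-type library. Its log2 fold change was 0.42 ± 0.16 (SE; adjusted p = 0.163, edgeR) and 0.21 ± 0.08 (SE) without library 1B (adjusted p = 0.238, edgeR). Gabarapl1 had 23.7, 35.5, 19.1 and 25.3 CPM in ΔDMR1-U2 muscle, against 19.5, 20.8, 20.0 and 22.5 CPM in wild-type. Library 2 of ΔDMR1-U2 was the lowest of all 8, so the groups overlapped, with a log2 fold change of 0.32 and 0.13 without library 1B.

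Map1lc3a was the most abundant family member per length, at 48.8 CPM per kilobase in ΔDMR1-U2 and 44.5 in wild-type, followed by Gabarap at 37.0 in ΔDMR1-U2 and 39.0 in wild-type. Map1lc3a had 44.7, 69.3, 57.9 and 58.7 CPM in ΔDMR1-U2 muscle, against 56.9, 46.5, 46.6 and 60.3 CPM in wild-type. Library 1A lay below and library 1B above all wild-type libraries, and the log2 fold change was 0.13, or 0.03 without library 1B and 0.24 without library 1A. Gabarap had -0.08 and Gabarapl2 0.11. Members of this family are similar in sequence, and no source used here says how reads that match more than 1 of them were handled.

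The 5 lysosomal genes had a median log2 fold change of 0.14, or 0.01 without library 1B, and 0 passed by edgeR or DESeq2. All-gene shares were 0.512% higher and 0.617% lower by edgeR, and 2.82% and 3.32% by DESeq2. Ctsd (chromosome 7, 142375911 to 142388038), the main aspartic protease and the most abundant lysosomal member at 115 CPM per kilobase in ΔDMR1-U2 and 100 in wild-type, had 238, 316, 256 and 273 CPM in ΔDMR1-U2 muscle, against 230.0, 234, 225 and 251 CPM in wild-type. Library 1B was the highest, and library 1A lay within the wild-type range. The log2 fold change was 0.20 ± 0.09 (SE; adjusted p = 0.211, edgeR), and 0.12 without library 1B. Gm49369 on the same strand shares 808 exon bases with Ctsd. Lamp2, an X-linked membrane protein needed for fusion with the lysosome, had 190.4, 193, 172 and 172 CPM in ΔDMR1-U2 muscle, against 153, 171, 169.9 and 167 CPM in wild-type. The groups of Lamp2 did not overlap by a margin under 1 CPM, and its log2 fold change was 0.14, or 0.12 without library 1A (adjusted p = 0.261 and 0.386, edgeR).

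Ctsl, a cysteine protease known as a FoxO target, had 162 CPM in library 1B, 101 to 105 CPM in the other ΔDMR1-U2 libraries and 90.3 to 108 CPM in wild-type. Its log2 fold change of 0.21 was 0.01 without library 1B, and Gm47123 on the opposite strand shares 1742 exon bases with it. Ctsb, a related protease, had -0.11, with a 95% interval of -0.27 to 0.05. Lamp1, the most used lysosome marker, had 201 to 217 CPM in ΔDMR1-U2 muscle, against 200.4 to 214 CPM in wild-type, with a log2 fold change of 0.01 and an interval of -0.11 to 0.14.

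Within each library, the mean log2 level relative to wild-type was taken over 8 ligase and FoxO genes and over 18 core autophagy genes. This contrast of chosen lists, not of whole routes, is a description with no test. The autophagy receptors and the lysosomal genes are in neither list. The ligase and FoxO mean was -0.01, 0.71, 0.05 and 0.21 in libraries 1A, 1B, 2 and 3 of ΔDMR1-U2, against 0.01, -0.14, 0.03 and 0.10 in the wild-type libraries. Library 1B was far above the rest, library 3 was the next highest, and libraries 1A and 2 lay within the wild-type range. The core autophagy mean was 0.02, 0.20, -0.02 and 0.05 in ΔDMR1-U2, and -0.02, -0.02, -0.02 and 0.06 in wild-type. It was likewise highest in library 1B, on a narrower scale.

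The difference between both means was -0.04, 0.51, 0.06 and 0.16 in ΔDMR1-U2, and 0.03, -0.12, 0.05 and 0.05 in wild-type. It averaged 0.18 ± 0.24 in ΔDMR1-U2 (SD, n = 4), against 0.00 ± 0.08 in wild-type, and 0.06 ± 0.10 in ΔDMR1-U2 without library 1B (SD, n = 3). The difference was highest in library 1B, ΔDMR1-U2 library 3 and, narrowly, library 2 also lay above the wild-type range of -0.12 to 0.05, while library 1A lay within it. Among the ligase and FoxO genes, library 1B ranged from 1.03 to 3.94 times the wild-type mean and was the highest library in 6 of 8. Among the core autophagy genes it ranged from 0.746 to 1.90 times and was the highest in 11 of 18. Over all tested genes it was the highest in 20.4%.

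**Figure D4:**
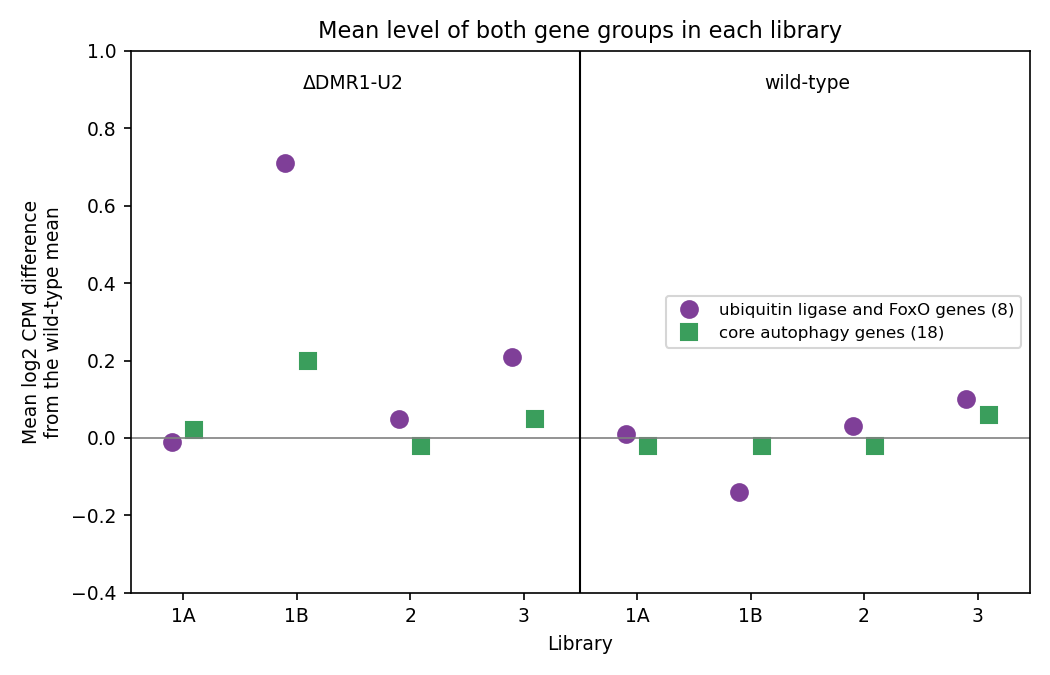
For each library, the purple circle gives the mean log2 CPM difference from the wild-type mean over 8 ubiquitin ligase and FoxO genes, and the green square the same over 18 core autophagy genes. In ΔDMR1-U2 library 1B the circle is at 0.71 and the square at 0.20; in the other 7 libraries both lie between -0.14 and 0.21.

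Library 1B was the highest of the 8 libraries in 28 of 39 members, where it was the highest in 20.4% of all tested genes. In 13 members it was at least 1.5 times the wild-type mean, where 8.16% of all genes were. These were Fbxo32, Bnip3, Ddit4, Sesn1, Foxo3, Trim63, Map1lc3b, Sqstm1, Cebpb, Gabarapl1, Fbxo31, Ctsl and Atg9a. The same level was reached by 0 members in ΔDMR1-U2 library 1A, 0 in library 2, and 2 in library 3, namely Fbxo32 and Bnip3, where 4.11%, 2.85% and 4.78% of all genes reached it. The adipocyte and skin markers given above were also highest in library 1B, and their part in these values was not tested. At the other end, wild-type library 1B was the lowest of the 8 in 11 members, among them Fbxo32, Foxo3, Sesn1 and Sqstm1, where it was the lowest in 11.7% of all genes.

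Further genes of the same pathways were read from the fit as lists, beside shares over all genes of 0.512% higher and 0.617% lower by edgeR, 10.4% and 10.9% at an unadjusted p under 0.05, and 2.82% and 3.32% by DESeq2. Of 38 other autophagy genes, 0 rose and 1 fell by edgeR, with 4 higher and 2 lower at an unadjusted p under 0.05, and DESeq2 called 2 higher and 1 lower. Their median log2 fold change was 0.03. Trp53inp2, which promotes autophagy and is abundant in muscle, had 93.1, 108, 96.7 and 113 CPM in ΔDMR1-U2 muscle, against 145, 126, 159 and 152 CPM in wild-type. The groups did not overlap, and its log2 fold change was -0.50 ± 0.09 (SE; adjusted p = 0.0329, edgeR). It kept its call without ΔDMR1-U2 library 1B or 2 or wild-type library 1B and lost it without any of the other 5, with an adjusted p of up to 0.108. Calcoco1, a receptor relative, was at 0.67 (adjusted p = 0.0779, edgeR), and Rb1cc1, the scaffold of the Ulk kinases, at 0.30 (adjusted p = 0.0929, edgeR). Neither of these passed by edgeR with all libraries, and both passed by DESeq2 (adjusted p = 0.00573 for Calcoco1 and 0.0335 for Rb1cc1).

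Of 31 other ubiquitin ligase and deubiquitinase genes of muscle, 0 rose and 1 fell by edgeR, with 3 higher and 6 lower at an unadjusted p under 0.05, and DESeq2 called 1 higher and 2 lower, beside all-gene shares of 0.512% and 0.617% (edgeR), 10.4% and 10.9% (unadjusted) and 2.82% and 3.32% (DESeq2). Their median log2 fold change was 0.02. Fbxl22, an F-box protein of the sarcomere's Z-disc, had 22.3, 14.5, 27.9 and 21.6 CPM in ΔDMR1-U2 muscle, against 50.2, 40.2, 37.1 and 34.1 CPM in wild-type. It was lower in every ΔDMR1-U2 library and lowest in library 1B, with a log2 fold change of -0.90 and a standard error of 0.18 (adjusted p = 0.0441, edgeR). It kept its call without ΔDMR1-U2 library 1B or 2 and lost it without any of the other 6, with an adjusted p of up to 0.130. Cblb, a ligase of signalling receptors, was at 0.40 and Asb2, a ligase subunit of muscle, at -0.45 (adjusted p = 0.0679 and 0.107, edgeR), and both passed by DESeq2 (adjusted p = 0.01000 and 0.0284).

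Of 47 other genes of FoxO and mTORC1 signalling, 1 rose and 0 fell by edgeR, with 8 higher and 6 lower at an unadjusted p under 0.05, and DESeq2 called 2 higher and 2 lower, where 0.512% and 0.617%, 10.4% and 10.9%, and 2.82% and 3.32% of all genes were. The median over this list was -0.02. Rictor, the defining subunit of the second mTOR complex, which activates Akt upstream of FoxO, had 108, 118, 107 and 104 CPM in ΔDMR1-U2 muscle, against 88.5, 89.1, 90.9 and 89.4 CPM in wild-type. The groups were well apart, and its log2 fold change was 0.29 ± 0.06 (SE; adjusted p = 0.0457, edgeR). It kept its call without ΔDMR1-U2 library 2 and lost it without any of the other 7, with an adjusted p of up to 0.149. Ddit4l, a relative of Ddit4, was at -0.60, opposite in sign to Ddit4, and 2400001E08Rik, now named Lamtor1, a lysosomal anchor of mTORC1, at -0.29 (adjusted p = 0.0734 and 0.0749, edgeR), and both passed by DESeq2 (adjusted p = 0.00623 and 0.0218).

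Of 46 other lysosomal enzymes and membrane proteins, 0 rose and 0 fell by edgeR, 5 were higher and 3 lower at an unadjusted p under 0.05, where 10.4% and 10.9% of all genes were, and DESeq2 called 1 higher, Ctsf (adjusted p = 0.0289), and 0 lower, with a median log2 fold change of -0.01. The smallest p belonged to the cathepsin genes Ctso, Ctsf and Ctsz, with log2 fold changes of 0.32, 0.47 and -0.24 (adjusted p = 0.0925, 0.102 and 0.111, edgeR). Of 15 tested genes of the lysosomal proton pump, 0 differed by edgeR at an adjusted or an unadjusted p under 0.05 and 0 by DESeq2, with a median of -0.01 and log2 fold changes of -0.15 to 0.07.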

How the data were processed

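Total RNA of 8 muscle samples was measured in 2 groups of 4 libraries. The authors deposited 1 table with a raw read count per gene and library; per the file headers it also holds the authors' mean normalised counts, a signal per group, their wild-type over ΔDMR1-U2 fold ratio and its log2, and p-value columns. Per the submitters' processing notes, Bowtie2 2.1.0, DESeq2 1.4.5, FastQC 0.10.1, HTSeq 0.5.4p3 and TopHat2 2.0.9 were used with mm10. No source used here gives their settings, annotation or strand handling.

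Counts were filtered with filterByExpr at a minimum count of 10, TMM-scaled and tested with the edgeR 4.0.16 quasi-likelihood test in R 4.3.3, with Benjamini-Hochberg adjustment over 15241 genes and a threshold of 0.05. The test was tried on simulated counts, where 58.0% of 1.5-fold and 88.0% of 2-fold changes were recovered (15157 genes). Of the 181 genes called there, 11 had not been changed. These rates hold for the simulated counts only. They do not give the power for the genes described here, where ΔDMR1-U2 library 1B often lay far from the rest of its group. CPM was computed from the scaled library sizes, and log2 CPM with a prior count of 2. Exon lengths and coordinates came from GENCODE vM21 on the same assembly (GRCm38); 20939 symbols matched directly, 1946 through an older symbol and 451 not. The alternatives were DESeq2 1.42.0, other size factors, no filter, a replicate block and leaving out libraries.

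In each role, the 2 members with the smallest p, the member with the highest level per length and any member whose groups do not overlap are described in full. Members and lists were chosen with earlier results of these data known. Counts of how often a library was highest or reached 1.5 times the wild-type mean were added after the data were seen.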

Additional observations from a re-analysis of the deposited data

Results flagged for a closer look

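In each group of 4 libraries, a library was marked where its gap to the nearest other took up more of the group's range than Dixon's 95% critical value allows. For independent groups, chance marks about 1 in 20. The groups here are genes measured in the same 8 libraries, so 1 library can mark several at once, and that share is only a rough guide. The rule was not applied to all tested genes, so no all-gene share can be set beside the count. Over all tested genes, ΔDMR1-U2 library 1B was the highest of the 8 in 20.4% and the lowest in 21.3%. Of 78 groups examined, 7 were marked, and 5 of the 7 concerned ΔDMR1-U2 library 1B. These 5 were Fbxo32 at 109 CPM, against 43.9 in the next library of its group, Foxo3 at 79.5 against 42.9, Sesn1 at 198 against 87.4, Ddit4 at 31.7 against 10.7, and Ctsl at 162 against 105. ΔDMR1-U2 library 1A was high in Atg3, at 28.7 against 24.2 CPM. Wild-type library 1B was low in Ulk1, at 31.8 against 37.4 CPM.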

How the results depend on the processing

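The count of members called, 0 in the main comparison, was 2 by DESeq2 (Bnip3 and Atg9a) and 0 to 2 over the 8 fits that left out 1 library. Of the values of single members under the alternatives, 541 of 546 kept their side of the threshold, and the other 5, all of Bnip3 or Atg9a, passed it. Signs changed in 10 members, in 18 of 546 values, none of them called, mostly without ΔDMR1-U2 library 1B. The count over all genes, 172, was 930 by DESeq2, 16 without ΔDMR1-U2 libraries 1A and 1B, and 7 to 631 without 1 library, highest with ΔDMR1-U2 library 2 left out and lowest with ΔDMR1-U2 library 3, or else 1A of wild-type, left out. The count over the other pathway lists, 3, was 11 by DESeq2, 0 without both libraries, and 0 to 6 without 1 library. The cause was not tested.

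Same-named libraries of both groups did not deviate together, with correlations of -0.22 to -0.08, so the names were not taken as pairs. With a replicate block by name, 13 genes were called over all genes, 0 members and 0 genes of the other lists. With a replicate block by the leading number, these were 9, 0 and 0. Over the alternatives, the median over members ran from 0.03 to 0.15. The difference between the ligase and FoxO mean and the autophagy mean ran from 0.06 to 0.25. These moves were within 1 SD between libraries, but that SD includes ΔDMR1-U2 library 1B and so does not show stability. Leaving out that library gave the lowest value of both, against 0.12 and 0.18 with all libraries. Every member passed the filter on low counts in libraries of 16084413 counts or more.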
